A study of Mus musculus with 4 samples.

Results

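The 7 genes described here encode the receptor chains for leukaemia inhibitory factor (Lifr and Il6st), a kinase bound to them (Jak1), the transcription factor that the kinase activates (Stat3) and direct targets of that factor (Socs3, Pim1 and Pim3). They were taken by symbol from the 24054 gene rows of the deposited tables, and all 7 were among the 13267 genes with enough counts to be tested. RNA-seq had been carried out on 4 libraries of mouse embryonic stem (ES) cells. The wild type was 1 culture of line wt26 at passage 46, which had no Morc3 deletion and no transgene. The rescue group was 3 lines, T131-3C, T131-3D and T131-3M (3C, 3D and 3M below), each a single clone grown from the Morc3 knock-out line KO27-2 after a full-length Morc3 cDNA had been inserted on a PiggyBac transposon under puromycin selection. KO27-2 was itself a single CRISPR-Cas9 clone of wt26, so the 3 clones shared all that had happened in that line, and p-values below measure the spread between clones of 1 knock-out line. All 4 cultures were feeder-independent and grew on gelatin in serum medium with LIF, so the pathway was exposed to its ligand in every library. Morc3 knock-out libraries were not analysed here. The comparison asks whether the clones that carry the Morc3 cDNA differed from the wild type in genes of this pathway.

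Leukaemia inhibitory factor (LIF) is the cytokine added to mouse ES cell medium to hold the cells in self-renewal. It binds Lifr, which pairs with Il6st (gp130), the signalling chain shared by the interleukin-6 family of cytokines. Kinases of the Jak family on the cytoplasmic tails of both chains phosphorylate the receptor and then Stat3, which enters the nucleus and activates its targets. Socs3 is one such target and shuts the receptor off again, while Pim1 and Pim3 are serine/threonine kinases that support growth and survival.

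The 250 bases before a listed RefSeq start of each of 3 genes are shown 5′ to 3′ on the strand of the gene, on GRCm38.p6. Lifr and Il6st are shown because the clones lay on opposite sides of the wild type for the chains of the receptor, and Socs3 because a Stat motif lies in this window.
Lifr: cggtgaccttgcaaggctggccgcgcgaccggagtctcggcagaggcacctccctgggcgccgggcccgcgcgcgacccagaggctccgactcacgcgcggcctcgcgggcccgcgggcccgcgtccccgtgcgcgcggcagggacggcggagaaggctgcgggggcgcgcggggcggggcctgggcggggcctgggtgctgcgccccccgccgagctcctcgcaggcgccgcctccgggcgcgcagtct
Il6st: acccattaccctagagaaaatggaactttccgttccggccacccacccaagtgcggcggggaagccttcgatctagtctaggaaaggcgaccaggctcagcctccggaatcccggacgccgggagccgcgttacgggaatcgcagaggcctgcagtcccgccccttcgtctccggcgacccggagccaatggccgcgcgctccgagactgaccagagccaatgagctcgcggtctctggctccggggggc
Socs3: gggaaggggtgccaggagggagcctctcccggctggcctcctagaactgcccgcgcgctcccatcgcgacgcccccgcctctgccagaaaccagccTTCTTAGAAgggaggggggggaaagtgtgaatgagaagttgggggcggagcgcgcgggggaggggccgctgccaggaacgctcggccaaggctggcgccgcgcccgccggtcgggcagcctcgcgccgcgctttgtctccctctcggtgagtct
The Lifr window was chr15:7129322-7129571 on the plus strand, before the first of the 2 starts listed for that gene among the promoters used. It lies inside the RefSeq span of Lifr (chr15:7090610-7197489), and no window was taken at the outer end of that span. The Il6st window was chr13:112463820-112464069 on the plus strand and the Socs3 window chr11:117969367-117969616 on the minus strand. The Socs3 window lies inside the RefSeq span of Socs3 (chr11:117966079-117970336), not before its outer end. Capitals mark TTCNNNGAA, the letters recognised by Stat dimers, which read the same on both strands and were the only motif searched. The match in Socs3 ran from base -154 to base -146 relative to the listed start, and so lies within the span of the gene. Of the 9 RefSeq promoters of the 7 genes, each 300 bases long and reaching past the start, 1 held the motif (11.1%), against 8.30% of all 32851 promoters of that length. Since the share among the members was 1 promoter, it describes Socs3 and gives nothing about the group. The windows also differed in CpG dinucleotides. The windows before the first listed start of Lifr, Pim1 and Pim3 held 43, 36 and 31 CpG. Those of Il6st and Socs3 held 26 each, that of Jak1 19 and that of Stat3 13, while the median over all starts was 6 and the upper quartile 16. The second starts of Lifr and Pim1 held 3 and 4.

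The 4 libraries held between 13620914 and 18789457 counts on genes, the wild type being the deepest. Of all read pairs, 52.7% were counted on genes in the wild type and 45.1% to 47.0% in the clones, and 14.5% against 21.0% to 23.0% were unmapped, a difference that ran with the groups and whose part in the results was not tested. Morc3 was at 161 CPM in the wild type and at 655, 497 and 609 CPM in clones 3C, 3D and 3M, where reads from the inserted cDNA are included. CPM are counts scaled to a common library total over the tested genes, after TMM scaling, edgeR's correction for differences in composition between libraries. The summed CPM of 8 ES cell markers lay between 4031 and 4231, Dppa5a having the highest level per length. Of these markers Nanog, a pluripotency transcription factor, was at 299.7 CPM in the wild type and at 468, 358 and 481 CPM in clones 3C, 3D and 3M (log2 fold change 0.54 ± 0.17, SE; edgeR adjusted p = 0.40, and 0.00012 without clone 3D), above the wild type in every clone as Il6st and Jak1 were, and its part in the results was not tested. Over the 8 ES cell markers the median log2 fold change was 0.02. All clones were above the wild type for 3 of them, beside 28.7% of all genes, and below it for 1, beside 28.4%. The latter was Pou5f1, at 766 CPM in the wild type and at 698, 756 and 720 CPM in clones 3C, 3D and 3M. Markers of other cells were far lower in sum. Those of fibroblasts, the usual feeder cells, summed to 37.3 CPM in the wild type and to 50.3, 25.6 and 27.6 CPM in clones 3C, 3D and 3M, led by Thy1, with Col3a1, Lum and Dcn at 0 counts in every library. Markers of primitive endoderm (led by Sox7), mesoderm (Eomes), neuroectoderm (Sox1), trophectoderm (Hand1) and macrophages (Cd68) summed to between 0.14 and 13.2 CPM in any library. The median log2 difference from the wild type over all genes of a chromosome was 0.48 on chromosome 13 in clones 3C and 3M but 0.03 in 3D, and 0.34 to 0.35 on chromosome 14 in all 3 clones, while no other autosome reached 0.1 in any clone (largest absolute value 0.071 over 17 autosomes). On the Y chromosome, with 4 tested genes, the median was -0.35, -0.15 and -0.53 in clones 3C, 3D and 3M. Il6st is the only member on chromosome 13 or 14.

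All 7 genes were expressed in every library, with 930 to 5420 counts per library, so that counting error was 1.36% to 3.28% of each value. Levels of different genes were compared per length, as RPKM (CPM per kilobase of exons). Pim3 had the highest level, with a mean of 58.3 RPKM over the 4 libraries (55.6 to 60.1), followed by Socs3 at 50.3 RPKM (47.3 to 54.4). Both targets thus stood above the receptor chains in every library. Pim1 was at 28.6 RPKM (26.1 to 32.8), Lifr at 22.9 (19.97 to 27.4) and Stat3 at 21.5 (20.2 to 23.2), and the ranges of Pim1 and Lifr, and of Lifr and Stat3, overlapped. Jak1 at 13.1 RPKM (10.9 to 14.2) and Il6st at 10.7 (8.49 to 12.2) were lowest and also overlapped. With the longest transcript in place of the exons together, Il6st (13.5 RPKM) stood above Jak1 (13.1), and the other 5 positions were the same.

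**Figure D1:**
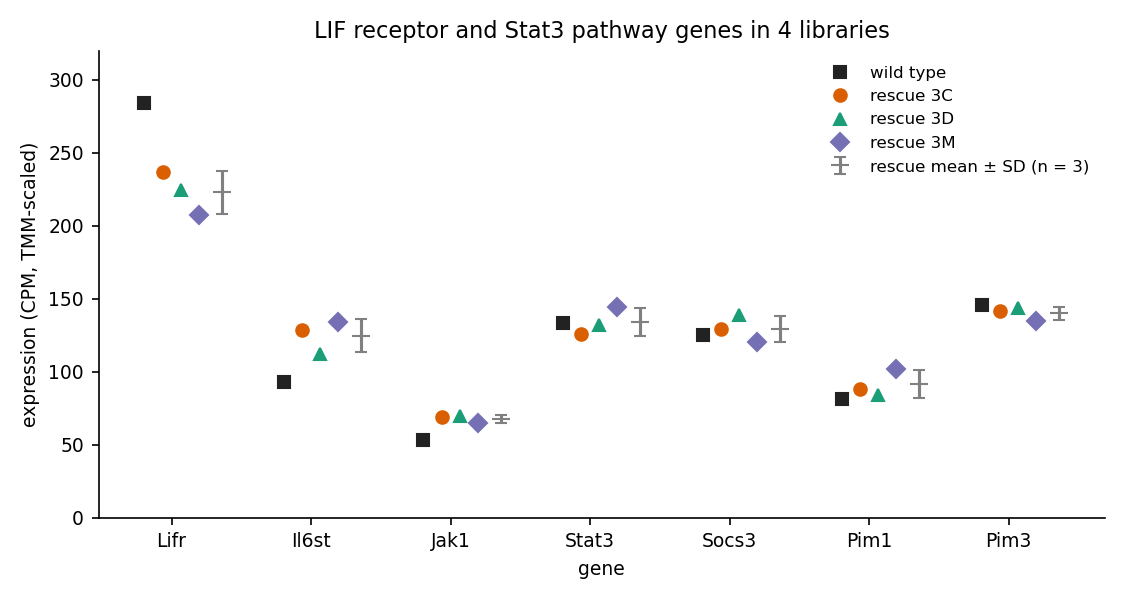
Expression of the 7 genes in each of the 4 libraries, in CPM after TMM scaling on the vertical axis; the grey bar is the mean ± SD of the 3 rescue clones. For Lifr the wild type (284 CPM) lies above all clones, for Il6st (93.1) and Jak1 (53.3) below all clones, while for Stat3 and Socs3 it lies among them.

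No member passed an adjusted p of 0.01 in edgeR's quasi-likelihood test of the 3 clones against the wild type, with Benjamini-Hochberg adjustment over all 13267 genes. The test called 0.00754% of all genes, which is 1 gene (Ddx3y, on the Y chromosome), so the absence of members from the calls is what most genes showed. DESeq2's Wald test, which called 0.49% of genes at the same threshold, and limma-voom also called 0 of the 7. The share of all genes called by limma-voom was not taken. At an unadjusted p under 0.05 edgeR's test listed 3 of the 7, Lifr, Il6st and Jak1, where it listed 10.3% of all genes. All 3 clones lay above the wild type in CPM for Il6st, Jak1 and Pim1, as for 28.7% of all genes, and all 3 lay below it for Lifr and Pim3, as for 28.4% of all genes. The median log2 fold change over the 7 genes was 0.05, beside 0.0051 over all genes tested. In simulated data of this layout the same test recovered 94.2% of genes changed 4-fold, a size that no member approached. Every simulated gene had the same spread (coefficient of variation 8.40%), so this share does not carry over to genes that vary more. Morc3 itself, at a log2 fold change of 1.87 ± 0.17 (SE), was not called (edgeR adjusted p = 0.11). With 1 wild-type library, its spread was assumed to be that of the clones.

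The clones lay below the wild type for one receptor chain and above it for the other, neither past the adjusted threshold. Lifr (chr15:7090610-7197489), the chain that binds LIF, was at 284 CPM in the wild type and at 237, 224 and 207 CPM in clones 3C, 3D and 3M, a mean of 223 ± 14.9 CPM (SD, n = 3). Every clone was below the wild type, at 83.4%, 78.9% and 73.0% of its level, and the gap from the wild type to the nearest clone was larger than the whole range of the clones. The log2 fold change was -0.35 ± 0.09 (SE, 95% interval -0.57 to -0.13; edgeR adjusted p = 0.31). In bulk RNA, fewer cells that express a gene and less of its RNA per cell cannot be told apart. The genes around Lifr did not share its difference. The median over the 524 tested genes of chromosome 15 was -0.06, -0.04 and -0.07 in the 3 clones, and that over the 20 tested genes nearest to Lifr 0.01, 0.05 and 0.01. In Lifr the log2 differences were -0.26, -0.34 and -0.45.

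Il6st (chr13:112464070-112506860), the signal-transducing chain gp130, was at 93.1 CPM in the wild type and at 129, 112 and 134 CPM in clones 3C, 3D and 3M (125 ± 11.6, SD, n = 3). The clones did not overlap the wild type and stood at 138%, 120% and 144% of it. The log2 fold change was 0.42 ± 0.12 (SE, 95% interval 0.13 to 0.72; edgeR adjusted p = 0.34). Without clone 3D it was 0.50 with an adjusted p of 0.00369 in edgeR's test, past the threshold; that fit called 3.17% of all genes, and the adjusted p of Il6st over all alternatives ranged from 0.00369 to 0.855. Much of chromosome 13 was higher in the same clones. In 3C and 3M, the log2 differences of Il6st (0.46 and 0.53) were close to the chromosome medians over 512 genes (0.48 in both) and to the medians of its 20 nearest tested genes (0.51 and 0.52). In 3D, where the chromosome median was 0.03 and that of the neighbours 0.08, Il6st was 0.27 above the wild type. Relative to the chromosome median, Il6st stood at -0.01 in 3C, 0.24 in 3D and 0.04 in 3M, so that clone 3D, the lowest of the clones in CPM, was the one farthest above its own chromosome.

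The ratio of Lifr to Il6st counts within a library needs no scaling between libraries. It was 3.05 in the wild type (95% counting interval 2.89 to 3.22), 1.84 in clone 3C (1.74 to 1.955), 2.004 in 3D (1.89 to 2.13) and 1.55 in 3M (1.46 to 1.63). Clones thus had 58.9% of the wild-type ratio on average (1.80 ± 0.23, SD, n = 3), and the interval of the wild type overlapped none of theirs. The intervals cover counting error only, and with 1 wild-type library no test was made. Il6st, below the line of this ratio, lies on chromosome 13, whose median log2 difference was 0.48 in clones 3C and 3M and 0.03 in 3D. The part of that difference in the ratio was not tested. Clone 3C and clone 3D overlapped each other, and 3M was below both. Per length, where the exons of Lifr and Il6st are of like size, Lifr exceeded Il6st 3.23-fold in the wild type and 1.95-, 2.12- and 1.63-fold in the clones. The summed CPM of both chains was 377 in the wild type and 366, 336 and 342 in the clones.

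**Figure D2:**
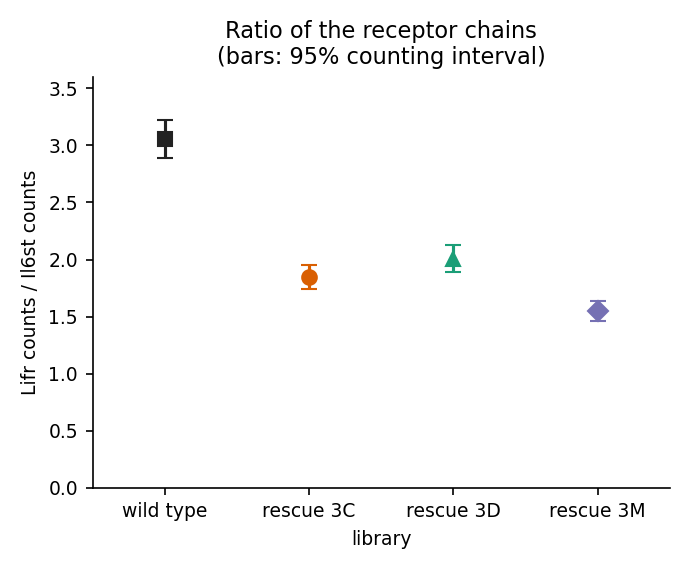
Ratio of Lifr to Il6st counts in each library, with 95% counting intervals as bars. The wild type stands at 3.05 and the 3 clones between 1.55 and 2.004.

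Jak1 (chr4:101151974-101265282) encodes a tyrosine kinase that binds the cytoplasmic tails of gp130 family receptors. It was at 53.3 CPM in the wild type and at 69.0, 69.6 and 64.8 CPM in clones 3C, 3D and 3M (67.8 ± 2.61, SD, n = 3). The clones lay close together and all above the wild type. The log2 fold change was 0.35 ± 0.09 (SE, 95% interval 0.12 to 0.57; edgeR adjusted p = 0.32). Unlike for Il6st, the medians of its chromosome stayed near 0 (-0.01, -0.03 and -0.03 over 856 genes of chromosome 4), as did those of its 20 nearest tested genes (-0.01, 0.07 and -0.06). The ratio of Lifr to Jak1 counts was 5.33 in the wild type (95% counting interval 4.98 to 5.70) and 3.44, 3.22 and 3.20 in the clones.

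**Figure D3:**
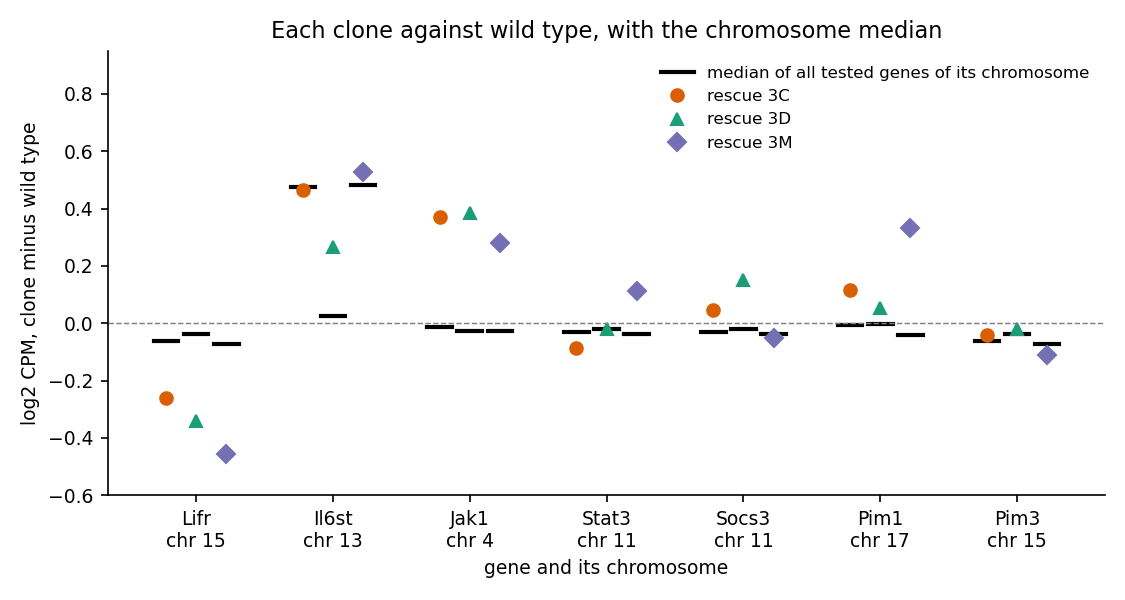
Log2 CPM of each clone minus the wild type (points) for each gene, with the median over all tested genes of its chromosome in the same clone (black lines). Il6st lies on its chromosome's line in clones 3C and 3M and above it in 3D, while Lifr in all clones lies below the lines of chromosome 15 and Jak1 above those of chromosome 4.

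Stat3 (chr11:100886806-100939594), the transcription factor of the pathway, did not separate the groups. It was at 134 CPM in the wild type and at 126, 132 and 145 CPM in clones 3C, 3D and 3M (134 ± 9.55, SD, n = 3), so the wild type lay inside the range of the clones. The log2 fold change was 0.0050 ± 0.10 (SE; edgeR adjusted p = 0.99), and its 95% interval, -0.24 to 0.25, leaves room for a difference of that size in either direction. Relative to Stat3, Jak1 counts were 0.40 in the wild type (counting interval 0.37 to 0.43) and 0.55, 0.53 and 0.45 in the clones, the interval of 3M (0.42 to 0.48) overlapping that of the wild type. These are RNA levels, and phosphorylated Stat3 was not measured.

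Of the direct targets, all 3 had log2 fold changes whose 95% interval included 0. Socs3 (chr11:117966079-117970336), the feedback inhibitor of the receptor, was at 125 CPM in the wild type and at 129, 139 and 121 CPM in clones 3C, 3D and 3M (130 ± 9.03, SD, n = 3). The wild type again lay inside the range of the clones, and the log2 fold change was 0.05 ± 0.10 (SE, 95% interval -0.19 to 0.29; edgeR adjusted p = 0.89). Pim3 (chr15:88862194-88865726) was at 146 CPM in the wild type and at 142, 144 and 135 CPM in the clones (140 ± 4.57, SD, n = 3). All clones were below the wild type, at 97.1%, 98.5% and 92.5% of it, and the log2 fold change was -0.06 ± 0.07 (SE, 95% interval -0.24 to 0.12; edgeR adjusted p = 0.82), close to the chromosome 15 medians of -0.06, -0.04 and -0.07. Pim1 (chr17:29490785-29496111) was at 81.2 CPM in the wild type and at 88.0, 84.2 and 102 CPM in the clones (91.5 ± 9.47, SD, n = 3). All clones were above the wild type, 3M the most at 126% of it and 3C and 3D at 108% and 104%, and the log2 fold change was 0.17 ± 0.13 (SE, 95% interval -0.14 to 0.49; edgeR adjusted p = 0.67). The summed CPM of the 3 targets was 352 in the wild type and 359, 367 and 358 in the clones.

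Scaled to Stat3 in the same library, Socs3 and Pim3 of the wild type lay inside the range of the clones, while Pim1 lay below it. Socs3 was at 0.93 times the Stat3 counts in the wild type and at 1.02, 1.05 and 0.83 times in clones 3C, 3D and 3M. Pim3 was at 1.09 times in the wild type and at 1.12, 1.09 and 0.93 times in the clones. For both genes the lowest ratio was that of clone 3M, which had the highest Stat3. Pim1 was at 0.61 times in the wild type and at 0.70, 0.64 and 0.71 times in the clones, all above the wild type, with overlapping counting intervals for 3D (0.59 to 0.69 beside 0.57 to 0.65).

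Of 42 further genes of the pathway, 36 were tested and edgeR's test called 0 at an adjusted p of 0.01, beside 0.00754% of all genes. DESeq2, which called 0.49% of all genes, and limma-voom also called 0. No share over all genes was taken for limma-voom. At an unadjusted p under 0.05 edgeR's test listed 5, among them Socs4, Stat6 and Sos1 on the higher side in the clones and Stat4 on the lower side, beside the 10.3% of all genes. All clones were above the wild type for 9 of the 36, beside 28.7% of all genes, and below it for 8, beside 28.4%, and the median log2 fold change was 0.01. Of the 6 genes with too few counts, the cytokine Il6 and the receptor chain Il31ra were at 0 counts in every library, and the cytokines Clcf1, Cntf, Osm and Il11 were the others.

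By role, the ligands were the scarcest. Lif itself was at 3.15 CPM in the wild type and at 2.74, 2.41 and 2.97 CPM in clones 3C, 3D and 3M, in a medium to which the cytokine was added. The other receptor chains were also low, at 14.1 to 30.5 CPM in sum beside 336 to 377 CPM for Lifr and Il6st. Among them Il6ra, the interleukin-6 receptor, had the largest log2 fold change, with 2.15 CPM in the wild type and 6.75, 1.99 and 3.42 CPM in the clones (log2 fold change 0.89 ± 0.68, SE), clone 3C being the high one.

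The other Jak kinases had a median log2 fold change of 0.11 and the other Stat factors one of 0.03. Stat4 was at 21.7 CPM in the wild type and at 11.6, 16.8 and 13.3 CPM in the clones, all of them lower (-0.63 ± 0.21, SE; edgeR adjusted p = 0.41). Stat5a was at 3.51 CPM in the wild type and at 3.41, 6.32 and 4.97 CPM in the clones (0.49 ± 0.37, SE). It shares much of its sequence with Stat5b, and any reads placed at both were not counted. How many such reads there were was not measured. The 14 negative regulators, which include the Socs and Pias proteins and phosphatases, summed to 579 CPM in the wild type and to 592 to 595 CPM in the clones. Of these Socs4 had the largest log2 fold change (0.51 ± 0.12, SE; edgeR adjusted p = 0.27), with 20.7 CPM in the wild type and 28.6, 28.7 and 30.9 CPM in the clones. Socs4 lies on chromosome 14, whose median was 0.34 to 0.35 in each clone. Pim2, the remaining Pim kinase, was at 11.6 CPM in the wild type and at 9.20, 8.52 and 9.81 CPM in the clones (-0.34 ± 0.16, SE; edgeR adjusted p = 0.54). The highest levels per length in this list were those of the adaptor Gab1 (112 RPKM), of Pias2 (43.7 RPKM) and of the adaptor Shc1 (32.1 RPKM), with log2 fold changes of 0.01, 0.05 and 0.26.

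Among 21 further targets of LIF or Stat3 in ES cells or other cells, 20 were tested. At an adjusted p of 0.01 edgeR's test called 0 of them, beside 0.00754% of all genes. At an unadjusted p under 0.05 it listed 3, Klf5, Tbx3 and Junb, all with higher levels in the clones, beside 10.3% of all genes. All clones were above the wild type for 10 of the 20 genes, beside 28.7% of all genes, and below it for 2, beside 28.4%. The median log2 fold change was 0.08. Pramel7, a member of a large gene family, had too few counts.

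Klf5, a pluripotency transcription factor, was at 372 CPM in the wild type and at 532, 540 and 496 CPM in clones 3C, 3D and 3M, with no overlap. The log2 fold change was 0.49 ± 0.07 (SE; edgeR adjusted p = 0.19). DESeq2 called it (adjusted p = 0.0059), as did edgeR's test without clone 3D (adjusted p = 0.0016). Klf5 is on chromosome 14, where the median gene was 0.34 to 0.35 above the wild type. Tfcp2l1, the target through which Stat3 is best known to act on ES cell self-renewal, was at 1225 CPM in the wild type and at 1319, 1655 and 1401 CPM in the clones (0.25 ± 0.13, SE; edgeR adjusted p = 0.56). It had the highest level per length of the list (151 RPKM), ahead of the kinase Sgk1 (138 RPKM) and the transcription factor Sall4 (124 RPKM), whose log2 fold changes were 0.09 and 0.02.

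Of the remaining targets with large differences, Ocln, Rgs16 and Dact1 had few counts, while Junb and Tbx3 had more. Ocln, a tight junction protein on chromosome 13, was at 3.09 CPM in the wild type and at 3.19, 6.32 and 4.71 CPM in the clones (0.62 ± 0.40, SE). Rgs16, a regulator of G protein signalling, was at 2.04 CPM and at 0.96, 1.37 and 1.81 CPM (-0.54 ± 0.40, SE), and Dact1, a modulator of Wnt signalling, at 3.25 CPM and at 2.23, 2.54 and 2.97 CPM (-0.33 ± 0.28, SE). Junb, an AP-1 factor, had more counts and stood at 47.4 CPM in the wild type and at 64.0, 58.2 and 66.2 CPM in the clones (0.41 ± 0.11, SE; edgeR adjusted p = 0.32). Tbx3 was at 231 CPM in the wild type and at 326, 285 and 264 CPM in clones 3C, 3D and 3M (0.34 ± 0.12, SE, edgeR adjusted p = 0.45). Cebpd, a C/EBP transcription factor, was the third lowest of the list at -0.13 ± 0.44 (SE), on 13 to 26 counts.

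**Figure D4:**
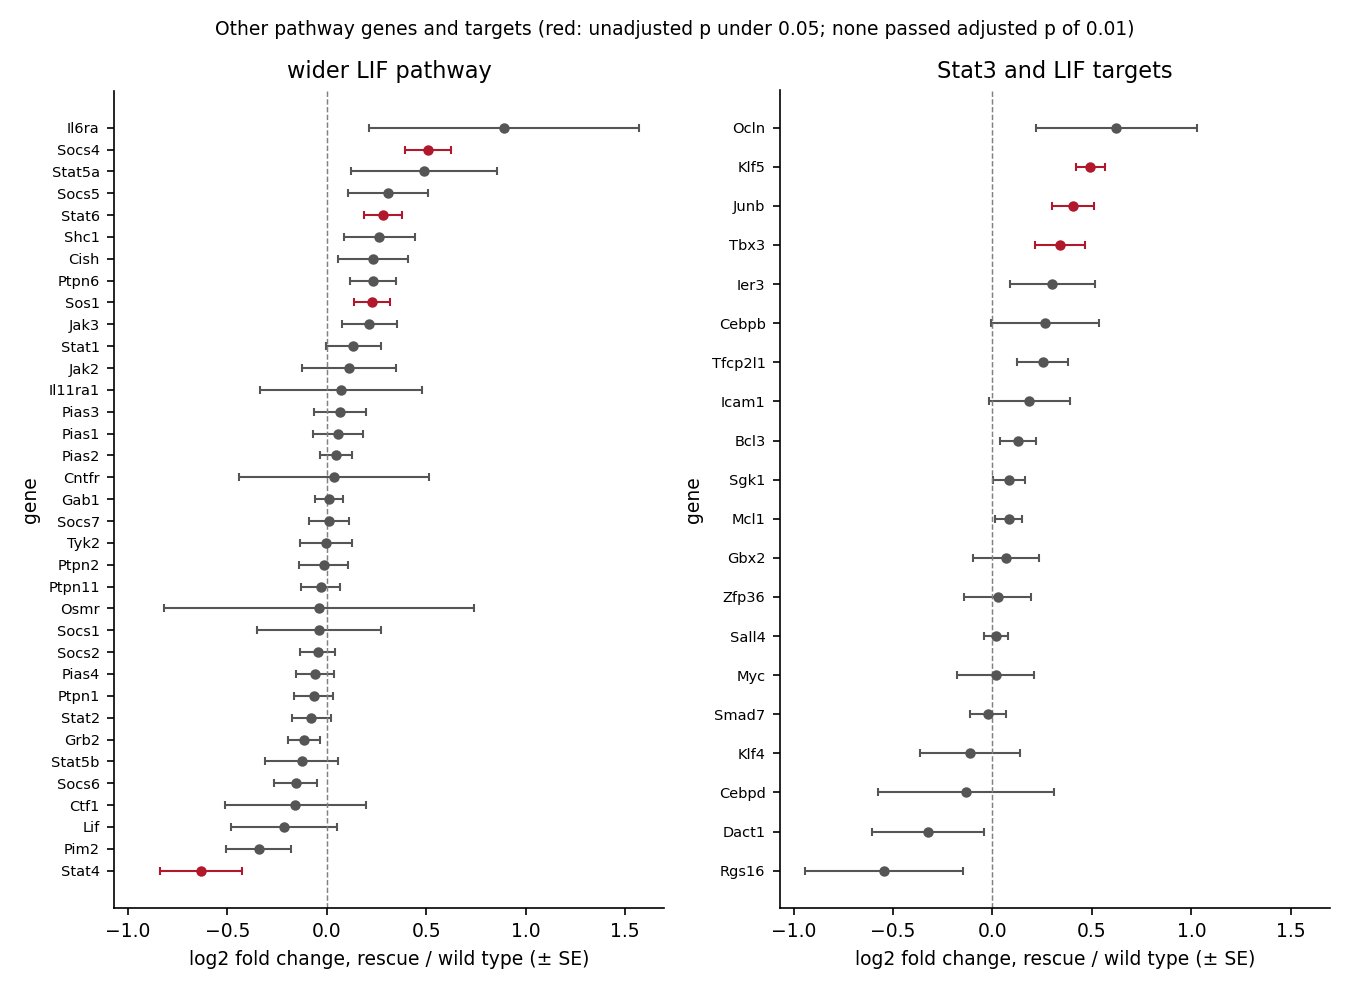
Log2 fold change of the rescue clones against the wild type, ± SE, for 35 of the 36 further pathway genes tested (left) and 20 further LIF or Stat3 targets (right); red marks an unadjusted p under 0.05. Most genes lie near 0, and the widest bars belong to genes with few counts such as Osmr and Il6ra.

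For each member, the genes whose pattern over the 4 libraries was most like its own were found by the Euclidean distance between log2 CPM centred on each gene's mean, among 8538 genes of at least 10 CPM. For Lifr these were Syne2 (distance 0.039), on chromosome 12, and Khdrbs3 (0.042), on chromosome 15 as Lifr is. Magi3 (0.022) and Ooep (0.029) were closest to Il6st, and Esd and Ccser2 (both 0.017), which lie on chromosome 14, to Jak1. Ttbk2 (0.016) and Lrch3 (0.029) were closest to Stat3, Grpel2 (0.015) and Atp5c1 (0.016) to Socs3, Sppl2b (0.025) to Pim1, and 0610009B22Rik (0.011) and Scamp5 (0.012) to Pim3. With 4 libraries and so many genes, near matches are to be found for any pattern.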

How the data were processed

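RNA had been extracted from mouse ES cells with Trizol and a column kit, depleted of ribosomal RNA, made into directional libraries and sequenced as 50 bp paired ends. The authors aligned reads to mm10 with STAR and let it count reads per gene, and the deposited tables hold these raw counts in an unstranded, a forward and a reverse column. The gene annotation they counted on was not given in the sources used here. The reverse column was used, as the forward column held 1.26% to 1.31% of its counts. Rows for unmapped (14.5% to 23.0%), multimapping (7.85% to 8.21%), ambiguous (0.26% to 0.33%) and no-feature reads (23.6% to 24.7% of all pairs) were kept out of library sizes and tests. Reads with several positions were not counted, so genes with near-identical copies are understated.

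Groups followed the labels: 1 wild-type library and 3 rescue clones. Genes passing filterByExpr (13267 of 24054 rows) were scaled by TMM and fitted with edgeR 4.0.16 (glmQLFit and glmQLFTest, R 4.3.3), with Benjamini-Hochberg adjustment over all of them and a threshold of 0.01, the threshold of the authors, who used DESeq2. DESeq2 1.42.0, limma-voom (limma 3.58.1), other scalings, filters, the unstranded column and leaving out each clone were alternatives. Log2 CPM used a prior count of 2. Ratio intervals were 95% intervals and cover counting error only. The edgeR script was tested on simulated data in which every gene had the same spread. In each of 3 simulations 200 genes were changed 4-fold, with a median of 13044 genes tested. Of the changed genes edgeR recovered 94.2% and DESeq2 83.3%. Chi-square per gene was 7.42 to 11.2 between clones, so no library was a copy of another.

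RefSeq genes on GRCm38.p6 (mm10) gave coordinates and sequences. Of the rows, 22542 matched by symbol and 1352 by a synonym (the macrophage marker Adgre1 is listed as Emr1). Exon and transcript lengths came from another gene annotation, the GENCODE basic set on mm10. The members and gene lists were chosen with earlier results of these data known. Named were all members, and of each other list the genes called, the 3 highest and 3 lowest log2 fold changes and the 3 highest levels, plus the leading marker of each marker list and the 2 most alike genes per member. Lif, Tbx3, Osmr, Nanog, Pou5f1, Stat6 and Sos1, the neighbours of each member and the count ratios were chosen after values were seen. Of the genes this rule names, 2 are not reported here.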

Additional observations from a re-analysis of the deposited data

How the results depend on the processing

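Of 146 values recomputed under the alternatives, 138 neither turned in direction nor crossed the threshold. Without clone 3D, Il6st passed the threshold with a log2 fold change of 0.50, so that 1 member was called, and 1 further target (Klf5) was called, as it was by DESeq2 (1). With each clone left out in turn, the log2 fold change lay between -0.40 and -0.30 for Lifr, 0.37 and 0.50 for Il6st, 0.33 and 0.38 for Jak1, -0.053 and 0.048 for Stat3, -0.0021 and 0.099 for Socs3, 0.085 and 0.23 for Pim1, and -0.078 and -0.032 for Pim3. The number of members called and of further targets called lay between 0 and 1, that of the 42 other pathway genes was 0, and the median over the members lay between 0.017 and 0.085. The sign turned for Stat3 without clone 3M (-0.053) and for Socs3 without clone 3D (-0.0021), both near 0 in every fit. Less the chromosome 13 median, Il6st stood at -0.012 in clone 3C and at 0.043 in clone 3M, from 0.46 and 0.53. The adjusted p ranged from 0.0206 to 0.802 for Lifr, never under 0.01, and from 0.0839 to 0.802 for Jak1. Across 3 other scalings no member changed direction.

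No paired analysis was possible because the single wild-type library shares at most 1 replicate number with the clones. The limits are 1 wild-type culture and 3 clones of a single knock-out line, so that differences between the groups cannot be told apart from clonal history, passage or culture. With 930 counts or more per member, counting error was at most 3.28%, and it forms part of the spread between clones. That spread (coefficient of variation) was smallest for Pim3 at 3.26% and Jak1 at 3.86%, and largest for Pim1 at 10.4%.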

Other observations

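On the strand opposite to the genes, 125 counts were assigned to the 7 genes over all libraries, beside 57110 on their own strand. Jak1 held 77 of them, 34 of these in the wild type, 11 in clone 3C and 16 each in 3D and 3M. With the unstranded column, the log2 fold change of Jak1 was 0.34.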
